A study of Mus musculus with 10 samples.

Results

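The genes described here encode the proteins of the cornified envelope and a few of the enzymes and partners that build it. They are every gene symbol of the deposited tables that begins with Lce and a digit or with Sprr, together with Lor, Flg2, Hrnr, Ivl, Rptn, Cdsn, Krtdap, Casp14, Tgm1, Tgm3, Tgm5 and Crct1. The tables hold 48 such genes among 24358 symbols. Filaggrin itself (Flg) belongs to the same rule and was not analysed here. Of the 48 genes, 46 had enough reads to be tested in the comparisons of lesional with uninvolved skin. Sprr2a2 had a count of 0 in all 10 libraries, and Sprr3 had 0 to 4 counts.

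RNA was taken from full-thickness dorsal skin of 5 C57Bl/6 mice carrying an interleukin-17C (IL-17C) transgene and showing psoriasis-like skin inflammation, so no library comes from a mouse without the transgene. Each mouse gave 1 uninvolved and 1 lesional biopsy (the labels call the latter involved), which makes 10 libraries. Mice 2237, 2275 and 2296 are labelled IL-17C+ and mice 2392 and 2465 IL-17C+KO, where the deleted gene is interleukin-6 by the title of the series. The mice were 10 or 14 weeks old, and neither the age of each mouse nor the promoter of the transgene is stated in those labels. Il6 went against the label, with 55 to 315 counts in the 4 libraries labelled IL-17C+KO and 4 to 69 in the 6 libraries labelled IL-17C+. The libraries are therefore named by their labels, and directions between genotypes rest on them.

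The cornified envelope is the protein shell that replaces the plasma membrane of a keratinocyte as it becomes a dead, flattened cell of the stratum corneum. Transglutaminases cross-link loricrin, involucrin, the small proline-rich (SPRR) proteins and the late cornified envelope (LCE) proteins into this shell, and lipids are attached to its outside. Most of these genes lie side by side in the epidermal differentiation complex. In psoriasis the SPRR2 and LCE3 genes are known as markers of inflamed or injured epidermis, while loricrin and the filaggrin-like proteins mark normal late differentiation.

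In RefSeq on GRCm38, the assembly also called mm10, 42 of the 48 genes lie on chromosome 3 between positions 92080271 and 93399442, a stretch of 1319 kb. The 11 Sprr2 genes occupy 92250647 to 92433927. The 13 Lce1 genes from Lce1a1 to Lce1l occupy 92646532 to 92851286, and the 6 Lce3 genes 92925287 to 92993426. Lce1m (93017807 to 93019061) begins 166.5 kb beyond Lce1l, on the far side of Lce3 and Crct1. It is described apart from the other Lce1 genes, a choice made after its values were seen. Casp14 (chromosome 10), Tgm1 (14), Cdsn (17), Tgm3 and Tgm5 (2) and Krtdap (7) lie elsewhere.

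The Sprr2, Sprr1 and Lce3 groups were higher in lesional than in uninvolved skin, and the Lce1 group was lower. The 250 bases before the RefSeq transcription start of 1 gene from each of these groups are printed. They read 5′ to 3′ on the strand of the gene. Capitals mark TGANTCA, a word that includes the AP-1 site TGAGTCA and its reverse complement TGACTCA. Capitals also mark, within the last 50 bases, TATAAA, the TATA box word. The regions are chr3:92338890-92339139 (plus strand) for Sprr2d, chr3:92485882-92486131 (minus strand) for Sprr1a, chr3:92932729-92932978 (plus strand) for Lce3b and chr3:92670316-92670565 (minus strand) for Lce1a2.
Sprr2d: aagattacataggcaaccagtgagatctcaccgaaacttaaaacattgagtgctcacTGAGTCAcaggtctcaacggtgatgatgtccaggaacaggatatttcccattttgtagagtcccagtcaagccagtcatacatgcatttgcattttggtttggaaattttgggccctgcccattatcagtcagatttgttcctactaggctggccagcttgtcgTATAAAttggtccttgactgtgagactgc
Sprr1a: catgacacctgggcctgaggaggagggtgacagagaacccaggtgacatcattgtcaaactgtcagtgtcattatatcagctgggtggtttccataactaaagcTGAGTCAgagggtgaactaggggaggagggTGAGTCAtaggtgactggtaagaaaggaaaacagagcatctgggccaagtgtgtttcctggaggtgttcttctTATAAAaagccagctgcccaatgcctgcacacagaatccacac
Lce3b: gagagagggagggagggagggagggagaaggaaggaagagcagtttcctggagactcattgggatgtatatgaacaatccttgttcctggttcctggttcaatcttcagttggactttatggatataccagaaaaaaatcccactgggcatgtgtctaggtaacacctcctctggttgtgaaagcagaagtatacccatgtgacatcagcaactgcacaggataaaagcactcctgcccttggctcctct
Lce1a2: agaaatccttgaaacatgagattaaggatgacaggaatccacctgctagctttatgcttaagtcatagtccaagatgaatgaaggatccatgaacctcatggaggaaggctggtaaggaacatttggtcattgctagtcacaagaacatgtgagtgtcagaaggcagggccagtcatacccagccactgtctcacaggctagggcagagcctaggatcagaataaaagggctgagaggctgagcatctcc

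TGANTCA reads the same on both strands and does not overlap TATAAA. It occurred in the 250 bases of 7 of the 9 Sprr2 genes with a RefSeq promoter entry and of 2 of 2 Sprr1 genes, against 6.75% of all 32851 RefSeq promoters. In those 7 Sprr2 genes the word began 193 to 198 bases before the start. It occurred in 0 of 12 Lce1 genes and 0 of 6 Lce3 genes. TATAAA, searched on the strand of the gene, was found in 7 of 9 Sprr2, 2 of 2 Sprr1, 1 of 12 Lce1 and 0 of 6 Lce3 genes, against 2.63% of all promoters. Lor, Ivl, Flg2, Rptn and Krtdap also held TGANTCA. The 7 Sprr2 genes, Sprr1a, Lor and Krtdap held it as TGAGTCA, Sprr2k also as TGACTCA, and Ivl as TGACTCA, while Sprr1b and Flg2 held TGAATCA and Rptn TGATTCA. Either of the 2 AP-1 sites occurred in 4.46% of all RefSeq promoters. Sprr2 and Lce3, which were both higher in lesional skin, differed in these words. Genes of a family resemble each other in sequence. Their matches are therefore not independent counts to set against the share of all promoters. The matches describe letters only.

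In lesional skin the Sprr1, Sprr2 and Lce3 genes were higher and the Lce1 genes, loricrin and the filaggrin-like Flg2 were lower, in most or all of the 5 mice. Across the fit of all 5 pairs, 10 of 10 tested Sprr2 genes had a higher level in lesional skin, with a median log2 change of 3.14 (range 2.62 to 4.6). All 6 Lce3 genes were higher, with a median of 2.68 (2.30 to 3.54). All 13 Lce1 genes from Lce1a1 to Lce1l were lower, with a median of -1.20 (-2.01 to -0.52). The median over all 16083 genes tested was -0.01.

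None of these differences passed the threshold used here, a Benjamini-Hochberg adjusted p under 0.05 over all genes in edgeR's quasi-likelihood test with the mouse as a block. That test called 8 of 16083 genes (0.0497%) and 0 of the 46, whose smallest adjusted p was 0.0708, for Lce1a2. At an adjusted p under 0.1 there were 12 of the 46, among them 8 Lce1 genes, against 3.18% of all genes. At an unadjusted p under 0.05 it counted 38 of the 46, 19 higher and 19 lower, against 21.5% of all genes (10.1% higher and 11.5% lower). DESeq2 called 34 of the 46 at an adjusted p under 0.05, 19 higher and 15 lower, against 12.7% of all genes (6.25% higher and 6.41% lower), and limma-voom called 0 of the 46 (0.0249%). Leaving out mouse 2237, edgeR called 13 of the 46 (2 higher and 11 lower), against 1249 of all 15934 genes tested there. Leaving out any other single mouse it called 0.

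By mouse, 19 of the 46 genes were higher in the lesion of 5 of 5 mice, where 9.12% of all tested genes were. They were the 10 Sprr2 genes, Sprr1a, Sprr1b, the 6 Lce3 genes and Rptn. A further 15 were lower in 5 of 5 mice, where 9.74% of all genes were. They were 11 Lce1 genes, Lce1m, Lce6a, Crct1 and Krtdap. In 2 genes, Sprr2b and Sprr2k, every lesional library lay above every uninvolved one (2.98% of all genes), and in 3 genes, Lce1a2, Lce1l and Lce1m, every lesional library lay below (4.27%).

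**Figure D1:**
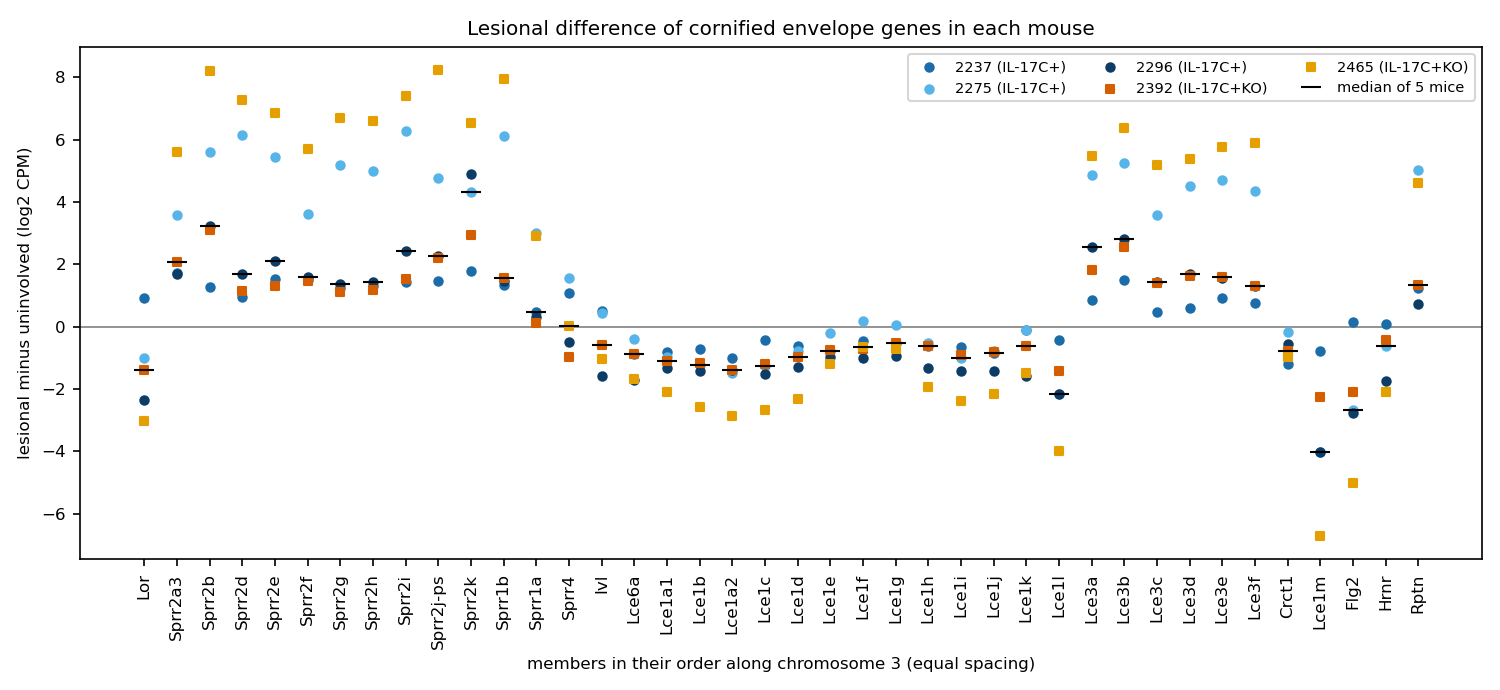
Difference between the lesional and the uninvolved library of each mouse (y axis, log2 CPM with a prior count of 2) for the tested genes on chromosome 3, in their order along the chromosome (x axis, equal spacing). Circles are IL-17C+ mice, squares mice labelled IL-17C+KO and bars the median of the 5 mice; the Sprr2 and Lce3 genes sit above 0 in all 5 mice, and 11 of the 13 genes from Lce1a1 to Lce1l sit below 0 in all 5.

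Values below are CPM (the counts of a gene scaled to the library total) after TMM scaling, listed for mice 2237, 2275 and 2296 (IL-17C+) and then 2392 and 2465 (labelled IL-17C+KO). The libraries held 21056850 to 31072491 counts, and 17790 to 18431 genes had at least 1 count. These are bulk samples, in which fewer cells of a type and less RNA per cell cannot be told apart. Summed markers of several cell types and states also differed between lesional and uninvolved libraries. Summed markers of activated epidermis (Krt6a, Krt6b, Krt16, S100a8 and S100a9) were higher in the lesion of 5 of 5 mice, at 407 to 6622 CPM in uninvolved and 7135 to 30024 CPM in lesional libraries. The sums of the 6 neutrophil markers (10.6 to 50.7 against 32.8 to 244 CPM) and of the 6 fibroblast markers (2398 to 4029 against 5600 to 29181 CPM) were also higher in 5 of 5 mice. Among the single genes, Cxcr2 and Dcn were higher in 4 of 5. The sum of the 7 skeletal muscle markers was lower in 5 of 5 mice, at 5050 to 37326 against 576 to 4931 CPM. In mouse 2237 it was near equal (5050 and 4931 CPM). Of the single genes, Myh4 was higher in the lesion of 3 mice and Myh1 in that of 1. The 6 basal epidermis markers summed to 5100 to 12251 CPM in uninvolved and 8522 to 13654 CPM in lesional libraries, and were higher in 4 of 5 mice. The 6 suprabasal markers, summed, were higher in 2 of 5 mice, although 1 of them, Krt2, was near absent at 0.0892 to 1.23 CPM in all libraries. The mucosal keratins Krt4, Krt13 and Krt76 summed to at most 12.7 CPM. The part of these marker differences in the envelope genes was not tested.

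The uninvolved libraries of mice 2275 and 2465 stood apart from the other 3. They held 537 and 407 CPM of the activated-epidermis markers, where the uninvolved libraries of 2237, 2296 and 2392 held 3922, 6622 and 2761. The 7 skeletal muscle markers summed to 26999 and 37326 CPM in these 2 libraries, the highest of the 10, and to 24200 CPM in the uninvolved library of 2392. The 12 hair shaft and inner root sheath markers, all detected, were at 11488, 27.3, 2263, 48.0 and 35.9 CPM in uninvolved skin and 8042, 8994, 1231, 24.8 and 2504 CPM in lesions (mice 2237, 2275, 2296, 2392 and 2465). Their sum was higher in the lesion of 2 of 5 mice, which were again 2275 and 2465, and their part in the envelope differences was not tested. Il17c was at 15171, 1416, 5395, 1900 and 534 CPM in uninvolved skin. In lesions it was at 10593, 10852, 12467, 2346 and 10878 CPM. The uninvolved libraries of 2465 and 2275 were the lowest of the 10 for Il17c, and its part was not tested either. The uninvolved libraries of 2275 and 2465 had the lowest Sprr2, Sprr1, Lce3 and Rptn levels of all 10, and the size of the lesional differences depends on these mice. Leaving both out, the medians were 1.75 for Sprr2, 1.36 for Lce3 and -0.98 for Lce1, and 43 of the 46 genes kept their direction.

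The small proline-rich proteins are short cross-bridging proteins that transglutaminases place between other envelope components. The summed level of the 11 Sprr2 rows was 266, 17.6, 675, 404 and 10.8 CPM in uninvolved and 610, 597, 2448, 999.6 and 1385 CPM in lesional skin. Each lesion was above the uninvolved skin of its own mouse. The groups overlapped, because the uninvolved library of mouse 2296 lay above the lesions of 2237 and 2275.

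Sprr2d, the Sprr2 gene with the highest mean CPM, was at 139, 3.54, 323, 176 and 3.26 CPM in uninvolved skin and 269, 256, 1033, 389 and 523 CPM in lesions. It was higher in 5 of 5 mice, by 0.96 (mouse 2237) to 7.29 (mouse 2465) log2 units, and only the uninvolved library of mouse 2296 reached into the range of the lesional values. The fitted log2 change was 3.09 ± 1.25 (SE, 5 mice), with an edgeR adjusted p of 0.217 and a DESeq2 adjusted p of 0.025.

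Sprr2b was at 19.3, 1.39, 33.8, 5.63 and 0.269 CPM in uninvolved skin and 47.0, 71.0, 315, 48.6 and 103 CPM in lesions. The ranges did not overlap. Its log2 change was 4.04 ± 1.04 (edgeR adjusted p 0.116).

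Sprr2k lies at the far end of the Sprr2 block and had the fewest counts of its tested genes. It had 5, 0, 7, 8 and 0 counts in uninvolved libraries and 30, 39, 321, 88 and 164 in lesional ones. These counts correspond to at most 0.358 CPM in uninvolved skin and to 0.903, 1.52, 12.6, 3.32 and 7.31 CPM in lesions, again without overlap. Its log2 change of 4.6 ± 0.89 was the largest of the 46 genes (edgeR adjusted p 0.0764), and because 2 uninvolved libraries had a count of 0 it depends on the prior count of the fit.

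Sprr2a3 was at 16.8, 8.32, 46.9, 8.80 and 1.34 CPM in uninvolved skin and 55.6, 102, 153, 37.1 and 69.8 CPM in lesions. It was higher in 5 of 5 mice, and only the uninvolved library of 2296 passed the lowest lesional value. Of its 50-base words in GENCODE M21 transcripts, 61.1% also occur in other genes, among them Sprr2a1 and Sprr2a2, so its counts are uncertain. Sprr2k, Sprr2g and Sprr2h shared no such word with another gene and were also higher in 5 of 5 mice, as Sprr2f was, with 0.714% of its words shared.

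The other tested Sprr2 genes (Sprr2e, Sprr2f, Sprr2g, Sprr2h, Sprr2i and the annotated pseudogene Sprr2j-ps) had log2 changes between 2.62 (Sprr2f) and 3.48 (Sprr2i). Sprr2g is also annotated as a transcribed pseudogene in RefSeq. It was at 17.8, 0.478, 57.3, 49.1 and 0.959 CPM in uninvolved skin and 42.1, 20.2, 147, 107 and 109 CPM in lesions.

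Sprr1b and Sprr1a, the other inducible members, differed in how much the lesion exceeded uninvolved skin. Sprr1b was at 80.4, 2.75, 239, 130 and 2.00 CPM in uninvolved skin and 202, 198, 664, 387 and 517 CPM in lesions, higher in 5 of 5 mice (log2 change 3.27 ± 1.27, edgeR adjusted p 0.205). Sprr1a was at 558, 98.1, 614, 378 and 89.7 CPM in uninvolved skin and 768, 782, 758, 415 and 674 CPM in lesions. It was also higher in 5 of 5 mice, but in mice 2237, 2296 and 2392 by only 0.46, 0.30 and 0.13 log2 units (fitted change 1.32 ± 0.55, edgeR adjusted p 0.223). The uninvolved values of mice 2275 and 2465 were again the lowest, and the lesion of mouse 2392 lay below the uninvolved libraries of 2237 and 2296.

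Sprr4 did not share the pattern of the Sprr1 and Sprr2 genes. It was at 21.6, 11.3, 32.9, 27.4 and 16 CPM in uninvolved skin and 45.7, 33.7, 23.2, 13.8 and 16.3 CPM in lesions, higher in 3 mice and lower in 2 (log2 change 0.23 ± 0.40, edgeR adjusted p 0.772). Sprr3, a gene of the esophagus and other internal epithelia, was at most at 0.157 CPM.

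**Figure D2:**
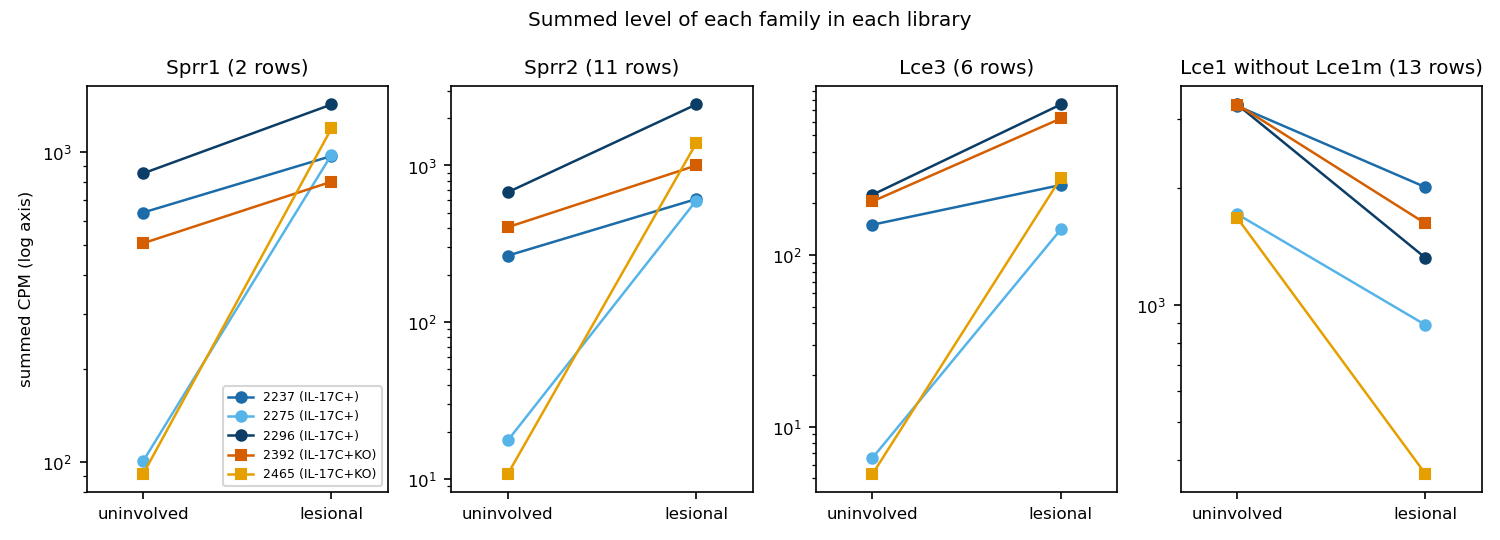
Summed CPM (y axis, log scale) of the Sprr1, Sprr2, Lce3 and Lce1 rows in the uninvolved and lesional library of each mouse, joined by a line; circles are IL-17C+ and squares IL-17C+KO mice. The Sprr1, Sprr2 and Lce3 sums are higher and the Lce1 sum is lower in the lesion of all 5 mice, and the uninvolved libraries of mice 2275 and 2465 start lowest in every panel.

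LCE proteins join the envelope late, in the outermost living layers. The Lce1 genes are the abundant set of normal epidermis, and the Lce3 genes the set known from wounded and psoriatic epidermis. The 6 Lce3 rows summed to 150, 6.57, 225, 206 and 5.29 CPM in uninvolved skin and 256, 141, 756, 626 and 281 CPM in lesions, higher in 5 of 5 mice. The uninvolved values of mice 2237, 2296 and 2392 lay above the lesional value of mouse 2275, so the groups overlapped.

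Lce3f, the Lce3 gene with the highest mean CPM (per length, its mean of 129 FPKM was below the 141 FPKM of Lce3c), was at 38.6, 1.87, 61.2, 54.2 and 0.844 CPM in uninvolved skin and 65.6, 39.7, 152, 134 and 54.8 CPM in lesions. It was higher in 5 of 5 mice, by 0.76 to 5.89 log2 units (fitted change 2.52 ± 0.86, edgeR adjusted p 0.162). Lce3b had the largest log2 change of the block, 3.54 ± 0.78 (edgeR adjusted p 0.0938), and Lce3c the smallest, 2.30 ± 0.72. Between 12.1% and 49.3% of the 50-base words of an Lce3 gene occur in another Lce3 gene, so differences among them are uncertain while the direction is shared by all 6.

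The 13 Lce1 rows ran the other way, with 3250, 1713, 3278, 3277 and 1676 CPM in uninvolved skin and 2008, 888, 1321, 1620 and 368 CPM in lesions. Each lesion was below the uninvolved skin of its mouse. The lesion of mouse 2237, at 2008 CPM, was above the uninvolved libraries of 2275 and 2465, so the groups overlapped.

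Lce1a2 had the smallest p of the 46 genes. It was at 575, 343, 452, 524 and 327 CPM in uninvolved skin and 286, 122, 174, 200 and 45.3 CPM in lesions, without overlap (log2 change -1.61 ± 0.29, edgeR adjusted p 0.0708). Lce1a1 was at 613, 318, 555, 577 and 310 CPM against 348, 162, 224, 267 and 71.9 CPM (-1.26 ± 0.23, edgeR adjusted p 0.0721), with only the lesion of mouse 2237 above the lowest uninvolved values.

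Lce1b was at 357, 225, 343, 362 and 210 CPM in uninvolved skin and 217, 96.8, 129, 161 and 35.2 CPM in lesions (-1.41 ± 0.28). Lce1j was at 141, 58.7, 157, 127 and 60.2 CPM against 78.4, 34.2, 58.2, 72.3 and 13.4 CPM (-1.20 ± 0.24). Lce1i was at 166, 93.7, 198, 179 and 91.8 CPM against 105, 46.6, 74.0, 94.6 and 17.6 CPM (-1.27 ± 0.26). All 3 were lower in 5 of 5 mice, with edgeR adjusted p of 0.0803, 0.0826 and 0.0853, and in all 3 the lesion of mouse 2237 reached into the uninvolved range, as that of 2392 did for Lce1j and Lce1i.

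Along the block, the gene nearest to Lce3 differed most. Lce1l was at 93.2, 102, 116, 143 and 111 CPM in uninvolved skin and 69, 23.0, 25.8, 53.2 and 7.0 CPM in lesions, without overlap (-2.01 ± 0.48, edgeR adjusted p 0.105). The smallest differences were those of Lce1g and Lce1f (-0.52 ± 0.18 and -0.53 ± 0.20), the 2 genes that were slightly higher in the lesion of mouse 2275. Between 9.12% and 27.1% of the 50-base words of the genes from Lce1a1 to Lce1l occur in another gene, either of the same block or Gm38119.

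Lce1m, which shared no 50-base word with another gene, was at 383, 788, 489, 745 and 941 CPM in uninvolved skin and 222, 48.7, 29.8, 157 and 8.96 CPM in lesions. The ranges did not overlap, and the log2 change was -3.51 ± 0.87 (edgeR adjusted p 0.108, DESeq2 adjusted p 3.82e-07). Its pattern in uninvolved skin also differed from that of the Lce1 sum. The libraries of 2275 and 2465, lowest for the Lce1 sum, were the highest for Lce1m. Mouse 2237 was lowest for Lce1m, as it also was for Lce1l, Flg2 and Lor. Lce6a, a single gene between Ivl and Lce1, was lower in 5 of 5 mice (-1.10 ± 0.24, edgeR adjusted p 0.0905).

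The balance of the 2 LCE groups within a library does not depend on scaling between libraries. Per 100 CPM of Lce1 there were 4.63, 0.384, 6.86, 6.28 and 0.316 CPM of Lce3 in uninvolved skin and 12.8, 15.9, 57.2, 38.6 and 76.5 CPM in lesions. Every lesional ratio was above every uninvolved one. Within each mouse the rise of the ratio follows from the Lce3 and Lce1 sums above, so it is not separate evidence. Mouse 2465 had both the lowest uninvolved and the highest lesional ratio.

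**Figure D3:**
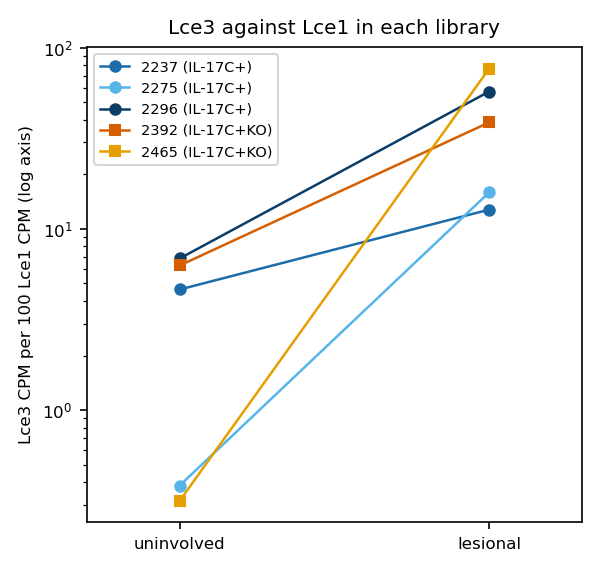
Summed Lce3 CPM per 100 CPM of the 13 Lce1 rows (y axis, log scale) in the uninvolved and lesional library of each mouse, with circles for IL-17C+ and squares for IL-17C+KO mice. The uninvolved ratios run from 0.316 to 6.86 and the lesional ones from 12.8 to 76.5.

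Loricrin (Lor) is the bulk protein of the mature envelope. It was at 856, 1693, 2090, 2977 and 1885 CPM in uninvolved skin and 1624, 853, 410, 1145 and 234 CPM in lesions. It was lower in 4 of 5 mice and higher in mouse 2237, and the groups overlapped (-1.41 ± 0.57, edgeR adjusted p 0.214). The Sprr2 sum per 100 CPM of Lor was 31.1, 1.04, 32.3, 13.6 and 0.572 CPM in uninvolved skin and 37.6, 70.0, 597, 87.3 and 592 CPM in lesions, higher in 5 of 5 mice.

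Involucrin (Ivl), an early scaffold of the envelope, was at 258, 190, 358, 399 and 162 CPM in uninvolved skin and 366, 257, 120, 268 and 78.5 CPM in lesions. Unlike loricrin it was higher in 2 mice (2237 and 2275) and lower in 3, with overlapping groups (-0.45 ± 0.34, edgeR adjusted p 0.490).

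The fused S100 genes encode long repetitive proteins of the granular layer, and the 3 measured here went in different directions. Flg2, a relative of filaggrin, was at 265, 619, 349, 699.8 and 657 CPM in uninvolved skin and 292, 97.6, 51.4, 165 and 20.4 CPM in lesions. It was lower in 4 of 5 mice and near equal in mouse 2237 (-2.48 ± 0.69, edgeR adjusted p 0.123). Hornerin (Hrnr), also lower in the same 4 mice, had a log2 change of -0.95 ± 0.36 (edgeR adjusted p 0.186). Repetin (Rptn) was at 443, 23.1, 708, 391 and 19.3 CPM in uninvolved skin and 1054, 761, 1161, 985 and 474 CPM in lesions, higher in 5 of 5 mice (2.49 ± 0.81, edgeR adjusted p 0.15). In the uninvolved libraries of 2275 and 2465 Rptn was low, as Sprr2 and Lce3 were, while Flg2 was among the 3 highest.

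**Figure D4:**
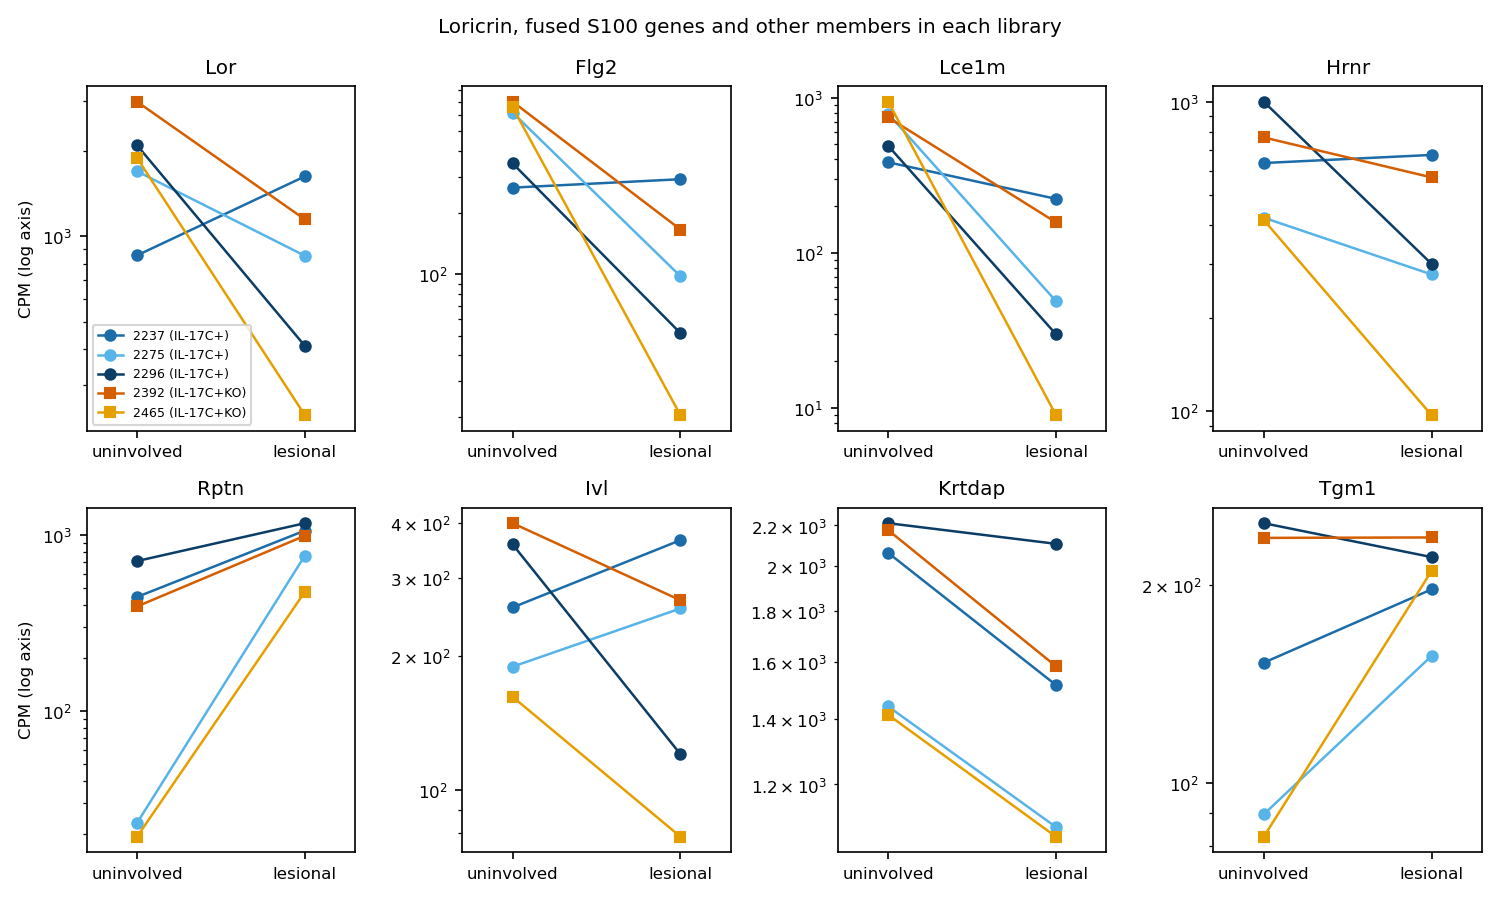
CPM (y axis, log scale, a separate range in each panel) of Lor, Flg2, Lce1m, Hrnr, Rptn, Ivl, Krtdap and Tgm1 in the uninvolved and lesional library of each mouse, joined by a line; circles are IL-17C+ and squares IL-17C+KO mice. Rptn is higher and Lce1m and Krtdap are lower in the lesion of all 5 mice, and for Lor, Flg2 and Hrnr mouse 2237 runs against the other 4.

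The enzymes that cross-link the envelope are transglutaminases. Tgm1, the membrane-bound transglutaminase whose loss causes lamellar ichthyosis, was at 152, 89.4, 248, 236 and 82.7 CPM in uninvolved skin and 197, 156, 220, 236 and 210 CPM in lesions. The lesional libraries lay within the uninvolved range (0.47 ± 0.25, edgeR adjusted p 0.328). Tgm5 was at 61.7, 39.3, 89.1, 70.3 and 39.4 CPM in uninvolved skin and 65.5, 55, 70.4, 57.6 and 48.3 CPM in lesions (0.05 ± 0.18, edgeR adjusted p 0.903). Tgm3 was higher in 4 of 5 mice with a log2 change of 0.74 ± 0.33 (edgeR adjusted p 0.252), and none of the 3 enzymes had an unadjusted p under 0.05.

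Casp14, a protease of filaggrin breakdown, was at 436, 93.4, 595, 423 and 79.3 CPM in uninvolved skin and 577, 385, 476, 406 and 229 CPM in lesions. It was higher in 3 mice and slightly lower in 2 (0.71 ± 0.39, edgeR adjusted p 0.338), and again the uninvolved libraries of 2275 and 2465 were lowest. Crct1 was at 1299, 396, 711, 672 and 420.4 CPM in uninvolved skin and 571, 353, 482, 391 and 214 CPM in lesions, lower in 5 of 5 mice (-0.74 ± 0.21, edgeR adjusted p 0.125). Krtdap, a secreted protein of differentiating keratinocytes, was lower in 5 of 5 mice by at most 0.46 log2 units (-0.36 ± 0.19, edgeR adjusted p 0.319). Corneodesmosin (Cdsn), the adhesive protein of corneodesmosomes, was higher in 3 mice and lower in 2 (0.11 ± 0.26).

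Levels between genes were compared per length, with the FPKM values the authors deposited. Krtdap was the highest of the 48 genes, with a mean of 5299 FPKM over the 10 libraries and a range of 3535 to 6942, above every value of the others. In CPM its mean was also the highest (1666, against 1377 for Lor). Its range in CPM (1062 to 2212) overlapped that of Lor (234 to 2977), so the separation depends on the length scaling. Crct1 (919), Sprr1a (772), Lor (748), Lce1a1 (583), Sprr2d (571) and Lce1a2 (506) followed in mean FPKM, with ranges that overlapped from one to the next. The ranking changed with the lesion in single mice. In mouse 2296 Lor went from 1122 FPKM in uninvolved skin to 219 FPKM in the lesion while Sprr2d went from 572 to 1814 FPKM. Sprr4 was left out of this order because its annotated model has only 231 bases, and its values held 1.40 counts per FPKM where the other Sprr and Lce genes with counts held 10.1 or more. Krtdap, which was kept, held 7.89 counts per FPKM.

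Within the 3 IL-17C+ mice, edgeR called 0 of the 46 genes and 0 of 16083 genes (0%) at an adjusted p under 0.05. Of the 46, 18 had an unadjusted p under 0.05, 6 higher and 12 lower, against 6.41% of all genes (3.54% higher and 2.87% lower), and DESeq2 called 6 of the 46 (1.54% of all genes). The medians of the log2 changes were 2.66 for Sprr2, 2.19 for Lce3 and -1.02 for Lce1. Within the 2 mice labelled IL-17C+KO, edgeR called 0 of the 46 and 2 of all genes (0.0124%). There, 24 of the 46 had an unadjusted p under 0.05, 10 higher and 14 lower, against 13.5% of all genes (6.16% higher and 7.31% lower). DESeq2 called 23 of the 46 (7.19% of all genes). The medians were 4.10 for Sprr2, 3.54 for Lce3 and -1.61 for Lce1. They rested on mouse 2465, without which they were 1.5, 1.62 and -0.92. Without mouse 2392 they were 7.13, 5.78 and -2.17. In both cases the remaining mouse is assumed to vary like the IL-17C+ mice.

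The difference between these lesional effects was tested directly. By edgeR 0 of the 46 genes passed at an adjusted p under 0.05 (0% of all genes) and 0 at an unadjusted p under 0.05 (1.17% of all genes), and DESeq2 called 0 of the 46 (0.0373%). For Sprr2d the difference, IL-17C+KO minus IL-17C+, was 1.57 ± 3.20 log2 units, for Lce3f 1.5 ± 1.91 and for Lor -1.37 ± 1.08. The median difference was 1.45 for Sprr2 and 1.34 for Lce3. Without mouse 2465 these became -1.18 and -0.58, and 17 of the 46 genes kept the sign of their difference, while without mouse 2392 they became 4.42 and 3.49. The direction of the difference therefore depends on mouse 2465. Each genotype label held 1 of the 2 mice with low uninvolved values.

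The genotype labels were also compared within lesional skin, with 2 libraries against 3. By edgeR 0 of 46 genes passed at an adjusted p under 0.05 (0% of 15691 genes), and DESeq2 called 0 (1.36%). Only 1 gene had an unadjusted p under 0.05 (7.3% of all genes), Sprr4, which was lower in the 2 lesions labelled IL-17C+KO (13.8 and 16.3 CPM) than in the 3 labelled IL-17C+ (23.2 to 45.7 CPM), with a log2 difference of -1.15 ± 0.33 and an edgeR adjusted p of 0.577. In 3 genes every lesion labelled IL-17C+KO lay below every IL-17C+ lesion (13.2% of all genes), and in 0 above (11.8%). Besides Sprr4 they were Sprr1a (415 and 674 against 758 to 782 CPM) and Tgm3 (46.4 and 47.7 against 48.4 to 58.7 CPM), which is named after its values were seen. The next smallest p belonged to Sprr2a3, Sprr1a, Casp14, Crct1 and Tgm5, with log2 differences of -0.92, -0.47, -0.56, -0.60 and -0.24 and edgeR adjusted p from 0.768 to 0.855.

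In uninvolved skin, by edgeR 0 of 45 tested genes passed at an adjusted p under 0.05 (0% of 15568 genes) and 0 at an unadjusted p under 0.05 (3.73%), and DESeq2 called 0 (0.0707%). The smallest p belonged to Sprr2a3 (-2.22 ± 1.0, edgeR adjusted p 0.849), with 8.80 and 1.34 CPM in the libraries labelled IL-17C+KO against 16.8, 8.32 and 46.9 CPM. Flg2 was the 1 gene in which both libraries labelled IL-17C+KO lay above all 3 IL-17C+ libraries (699.8 and 657 against 265 to 619 CPM; 10.5% of all genes), with a log2 difference of 0.73 ± 0.44. In 0 genes did they lie below (10.6%). The 12 hair shaft and inner root sheath markers, at 48.0 and 35.9 CPM in the libraries labelled IL-17C+KO, were all lower there by edgeR at an unadjusted p under 0.05, with a median log2 difference of -7.0 and 0 of 12 at an adjusted p under 0.05. Their part in the comparison of envelope genes was not tested. Age could not be separated from genotype, because the labels do not give the age of each mouse.

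Of 41 other cornification genes (further envelope proteins, filaggrin-processing proteases, lipid enzymes, nucleases and transcription factors), 39 were tested. In the comparison of all 5 mice 0 passed by edgeR at an adjusted p under 0.05, and 4 higher and 3 lower had an unadjusted p under 0.05, where 21.5% of all genes had one (10.1% higher and 11.5% lower). Their median log2 change was 0.12. Among those with the smallest p were the transcription factors Cebpb, at 47.2, 107, 92.0, 125 and 80.3 CPM in uninvolved skin and 103, 134, 157, 141 and 143 CPM in lesions (log2 change 0.64), and Nfe2l2 (0.62), and the secreted suprabasin Sbsn (-0.70). Cebpb was higher in the lesion of 5 of 5 mice, with overlapping groups, and the edgeR adjusted p of these 3 genes ran from 0.127 to 0.152. Of the 13 transcription factors, 11 had a higher and 2 a lower fitted change, where 7943 of all 16083 genes had a higher one. Only 3 of the 13, all higher, had an unadjusted p under 0.05 by edgeR. Some were split between mice, such as Klf4, higher in 2 of 5. Of the 6 envelope lipid genes 2 were higher and 4 lower, and 1 of the lower ones had such a p.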

How the data were processed

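The 10 libraries, made from total RNA, were read on an Illumina Genome Analyzer IIx. Cutadapt 1.6, TopHat2 2.0.12, HTSeq and Cufflinks 2.2.1 with mm10 are named in the submitters' processing notes, without order or settings. Per the file headers, the authors deposited a count and an FPKM per gene symbol. The counts are whole numbers and were used as raw reads. The deposited FPKM values are normalised to length and depth by the authors and served for levels between genes and 1 alternative test. No source used here gives the annotation, the strand setting or the treatment of multi-mapping reads, so reads of near-identical Sprr2 and Lce genes cannot be assigned with certainty.

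Genes were filtered with filterByExpr, scaled by TMM and tested in R 4.3.3 with edgeR 4.0.16 (robust quasi-likelihood F tests, Benjamini-Hochberg adjustment over all genes, threshold 0.05). Lesional and uninvolved skin were compared with the mouse as a block, because both biopsies came from each mouse per the labels' protocols. Genotype labels were compared within each skin type, with 1 library per mouse. Standard errors come from the change and its F statistic. Differences per mouse use log2 CPM with a prior count of 2. DESeq2 1.42.0 and limma 3.58.1 were alternatives, beside other scalings, no filter, no block and leaving out each mouse. The 2 libraries of a mouse deviated from their group means with correlations of -0.122, 0.034, -0.070, -0.072 and -0.072. The last 2 values are equal by construction, because the deviations of 2 mice from their mean mirror each other. These correlations give no sign that the 2 libraries of a mouse resemble each other. No libraries were identical.

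Genes with values in every library were those with an adjusted p under 0.05 (none), the 6 with the smallest p and a mean of at least 2 CPM in the comparison of all mice and in each genotype comparison, and Lor, Ivl, Tgm1, Sprr1a, Sprr1b and the Sprr2, Lce1 and Lce3 gene with the highest mean CPM. Others are given by group, and a few (Sprr2g, Rptn, Tgm3) were named after their values were seen. From the other cornification genes, those among the 4 with the smallest p were named, and 1 of these is not reported here. The members and lists were chosen with earlier results of these data known. Positions and promoters are from RefSeq on GRCm38.p6, which had all 48 symbols and a promoter entry for 44, and shared words from GENCODE M21. The tests were tried on simulated data.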

Additional observations from a re-analysis of the deposited data

Results flagged for a closer look

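Sprr2a2 had a count of 0 in all 10 libraries, yet the authors' FPKM column gives it up to 103.7 FPKM, in the lesion of mouse 2296, which is a signal in data outside the counts tested here. The Sprr2a2 FPKM values were 11.5, 5.39, 30.7, 5.79 and 0.777 in uninvolved skin and 43.2, 78.2, 104, 28.3 and 51.8 in lesions (mice 2237, 2275, 2296, 2392 and 2465), higher in the lesion of 5 of 5 mice. Of its 50-base words, 96.5% also occur in other genes, among them Sprr2a1 and Sprr2a3. No source used here says how reads shared by these genes were counted, and its part in the count of 0 was not tested.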

How the results depend on the processing

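In the comparison of all 5 mice edgeR called 8 genes and 0 of the 46 envelope genes. No low-count filter gave 15 genes, limma-voom 4, DESeq2 2036 (34 of the 46), and no replicate block, that is without the pairing of the biopsies, 769 (2 of the 46, both higher). Leaving out 1 mouse gave 0 to 1249 genes and 0 to 13 of the 46, the highest without mouse 2237 and 0 genes without each other mouse. Leaving out 2275 and 2465 gave 0 genes. Scaling to the basal epidermis markers, chosen like the previous setting after the data were seen, gave 1465 genes and 27 of the 46 (11 higher, 16 lower), moved the median of all genes to -0.34 and kept 43 of 46 directions. In IL-17C+ mice, 0 genes and 0 of the 46 became 247 and 6 with DESeq2, 60 and 1 without 2275 and 2465, and 201 and 8 with basal scaling. In mice labelled IL-17C+KO, 2 genes and 0 of the 46 became 5 genes without the filter, 1157 and 23 with DESeq2, 1 with limma on log2(FPKM + 1), 0 without the block, 0 to 11 genes leaving out 1 mouse (11 without 2237), 109 without 2275 and 2465, and 710 and 23 with basal scaling. With 2392 or 2465 left out, the remaining mouse of that label is assumed to vary like the others. The difference of effects gave 6 genes with DESeq2 and 1 with basal scaling. Between labels in lesional skin, 0 genes became 1 with upper quartile scaling, 1 without the filter and 213 with DESeq2. In uninvolved skin they became 11 with DESeq2, 76 with basal scaling, and 0 to 241 leaving out 1 mouse (241 without 2275). In every one of these genotype settings 0 of the envelope genes were called. No named gene passed the threshold in a main fit, so no passing main result could be lost or reversed. Of the values of named genes, 74 passed only under an alternative. A further 25 that passed under neither changed sign by more than 1 SE. The causes were not tested. Counts near 0, as for Sprr2k, limit the precision of its change.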
